A study of Mus musculus with 12 samples.

Results

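The mature microRNAs (miRNAs) mmu-miR-146a-5p, mmu-miR-146b-5p, mmu-miR-155-5p, mmu-miR-21a-5p and mmu-miR-21a-3p, which are known to respond to NF-kB signalling, were followed in ageing mouse muscle. The species prefix is left out in what follows. They were chosen by name, as the rows of the deposited table that carry exactly these symbols, and they are 5 of the 1900 mature miRNAs in the table. All 5 were among the 482 miRNAs that were above 0 in at least 5 of the 12 libraries and were tested. Small RNA was sequenced from the gastrocnemius, the large calf muscle, of male C57BL/6 mice, for which the labels and the study's methods name no engineered allele and no treatment. The young group was 6 months old and the aged group was 24 months old, with 6 libraries in each and 1 muscle sample per library. Levels are FPKM, that is, reads normalised for the length of the sequence and for library size. The table gives no reads, but its lowest values lie in steps of whole reads, from which 122990 to 7515187 reads per library were estimated. Young replicate 6 and aged replicate 3 were far deeper than the other libraries, and aged replicate 5 was the shallowest. Depth was not balanced between the ages. The young libraries other than replicate 6 had 198201 to 549544 reads, and the aged ones other than replicate 5 had 1244475 or more. One read of a 22-nucleotide miRNA was therefore worth between 5.86 and 378 FPKM.

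NF-kB is a family of transcription factors that switches on inflammatory genes after Toll-like receptor, interleukin or tumour necrosis factor signals. The miR-146 family is induced by it and represses the adaptor TRAF6 and the kinase IRAK1 upstream of it, which forms a negative feedback loop. miR-155, made from the non-coding RNA of its host gene, is induced in activated immune cells and represses SOCS1 and SHIP1, inhibitors of inflammatory signalling. miR-21 is widely expressed, rises in injury and fibrosis in many tissues, and represses PDCD4.

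The mature sequences show what the 5 have in common and where they differ. They are given 5′ to 3′ as in RefSeq for GRCm38.p6, with the seed (bases 2 to 8, the part that pairs with targets) in capitals.
miR-146a-5p: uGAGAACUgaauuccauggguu
miR-146b-5p: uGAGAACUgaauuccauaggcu
miR-155-5p: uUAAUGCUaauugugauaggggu
miR-21a-5p: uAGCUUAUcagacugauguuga
miR-21a-3p: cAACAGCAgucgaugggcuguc
miR-146a-5p and miR-146b-5p shared their seed and were identical over the first 17 bases. They differed at 2 of 22 positions, G18A and U21C, counted from 1 at the 5′ end with the base of miR-146a-5p first. The near copy miR-21c also carried the seed of miR-21a-5p, while miR-21b differed inside it (C4U, with the base of miR-21a-5p first). No other mature miRNA in RefSeq carried the seed of miR-155-5p or of miR-21a-3p.

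The 5 came from 4 hairpins at separate loci. miR-146a-5p lay on the minus strand at chr11:43374435-43374456, where GENCODE M21 annotates no other gene. miR-146b-5p lay on the plus strand at chr19:46342790-46342811, in an intron of the protein-coding gene Mfsd13a on the same strand. Its hairpin started 30377 bases beyond the end of Nfkb2, which encodes an NF-kB subunit. miR-155-5p lay on the plus strand at chr16:84714143-84714165, in an exon of its non-coding host gene Mir155hg. Both miR-21a arms lay on the minus strand, at chr11:86584120-86584141 and chr11:86584082-86584103, in an untranslated part of an exon of Vmp1.

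The levels were ordered by FPKM, which corrects for length and library size but for no other difference between sequences. miR-21a-5p was the most abundant of the 5, with rank 27 among all miRNAs in young and rank 26 in aged muscle by mean FPKM. It exceeded miR-146b-5p in 12 of 12 libraries, by 5.03-fold to 17.6-fold, and the ranges of the pair did not overlap. miR-146b-5p, at rank 75 in young and 73 in aged muscle, exceeded miR-146a-5p in 12 of 12 libraries, although their ranges over all libraries overlapped. miR-146a-5p, at rank 116 in young and 83 in aged muscle, was above miR-21a-3p in 9 of 12 libraries, so their order was not the same throughout. miR-155-5p had the lowest mean of the 5, at rank 189 in young and 156 in aged muscle. It was below miR-21a-3p in 12 of 12 libraries, with overlapping ranges.

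**Figure D1:**
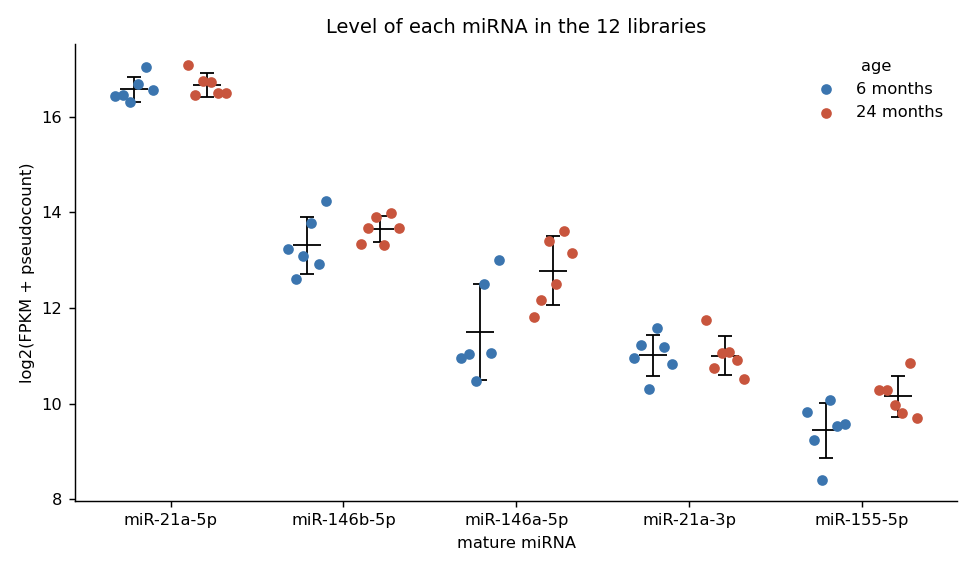
Level of the 5 miRNAs in each library, as log2(FPKM + pseudocount) on the vertical axis, by miRNA and age. Points are libraries (6 per age) and bars are the mean ± SD; for miR-146a-5p 4 of the 6 young libraries lie below every aged library, while the miR-21a-5p ages overlap almost fully.

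To ask whether these miRNAs differed with age, miR-146a-5p, the feedback inhibitor that is best known as an NF-kB target, was taken first. Its level in young muscle ran from 1370.0 FPKM through a median of 2062 to 8135, and in aged muscle from 3566 through 7389.7 to 12503. In young muscle 4 libraries were below every aged one, but young replicates 4 and 6 were high (5793 and 8135 FPKM), so the ages overlapped. The mean was 3560.0 ± 2751 FPKM in young and 7700.4 ± 3615 in aged muscle (SD, n = 6 each). All 6 aged libraries were above the young median and 3 were above the young maximum. miR-146a-5p rose by 1.27 on the log2(FPKM + 48.2) scale (SE 0.35, limma adjusted p = 0.0497 over 482 miRNAs), a 2.42-fold change. It was the 1 member called among the 5, where 2.9% of all miRNAs tested were called and 0.622% were called as higher in aged muscle. The ages did not overlap for 0 of the 5 members, against 2.7% of all miRNAs. An exact permutation test of this miRNA alone gave p = 0.0390, two-sided.

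The call of miR-146a-5p stood at the threshold. Its direction was the same in all 26 alternatives, but 20 of them lost the call. It was lost when young replicate 1, 2, 3 or 5 or aged replicate 3, 4, 5 or 6 was left out (limma adjusted p from 0.0695 to 0.144), and kept without each of the other libraries. The reads behind a value ran from 9 in young replicate 3 (95% Poisson interval 4.12 to 17.1 reads) to 1846 in aged replicate 3. The adjustment also counted every miRNA name as a test of its own. Of the miRNAs called, miR-136-3p and miR-3071-5p had identical means, SDs and limma results, and so had miR-136-5p and miR-3071-3p. Whether the call of miR-146a-5p holds when such pairs are counted once was not tested. In muscle tissue, a change in the number of cells of a type and a change in RNA per cell cannot be told apart.

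miR-146b-5p, with the same seed, moved less. It ran from 6165 FPKM through 9133 to 19216 in young libraries and, in aged ones, from 10156 through 13034 to 16271. The highest value belonged to young replicate 6, and 0 aged libraries exceeded it, although all 6 were above the young median. The mean was 10886 ± 4857 FPKM in young and 13043 ± 2508 in aged muscle (SD, n = 6 each). The log2 difference was 0.34 (SE 0.21), which did not pass the test (limma adjusted p = 0.489). It was 0.20 without young replicate 2 and 0.53 without young replicate 6.

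The balance within the miR-146 family was then compared, because both members carry the same seed. The log2 ratio of miR-146a-5p to miR-146b-5p was -1.81 ± 0.56 in young and -0.88 ± 0.52 in aged muscle (SD, n = 6 each). In FPKM, miR-146a-5p stood at 0.158 to 0.423 times miR-146b-5p in young libraries and at 0.344 to 0.768 times in aged ones. In aged muscle 4 libraries were above every young one, and aged replicates 1 and 2 lay within the young range. The log2 difference of 0.93 had an exact permutation p of 0.0173 (two-sided, 1 comparison, smallest possible p 0.00216). It stayed between 0.76 and 1.06 with exact permutation p from 0.0130 to 0.0346 when any 1 library was left out. The ratio is taken within a library, so the scaling of the library cancels, apart from the pseudocount. How reads that match both miRNAs would have been assigned is not given in the sources used here. The study's table of up-regulated miRNAs, drawn from these same libraries, holds miR-146a-5p but not miR-146b-5p. The shift of their ratio is therefore not independent evidence.

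**Figure D2:**
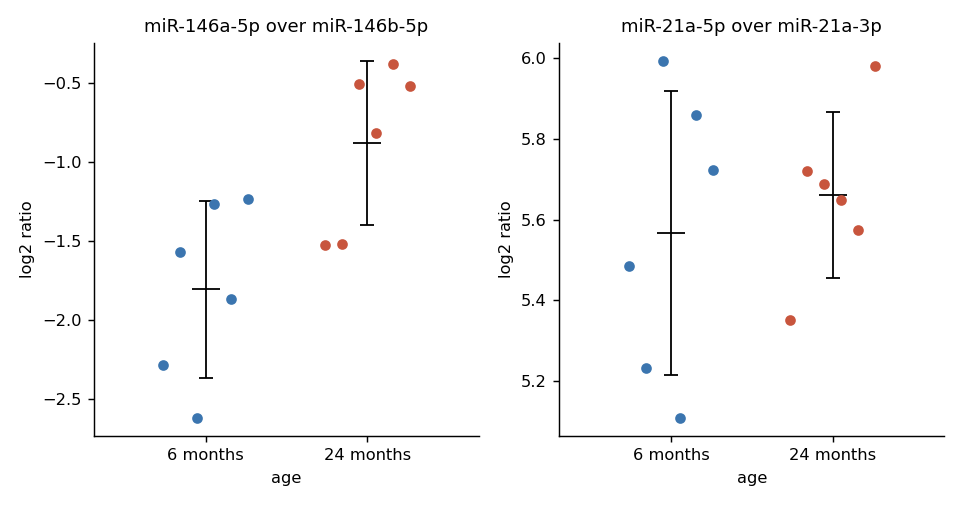
Log2 ratio (vertical axis) of miR-146a-5p to miR-146b-5p and of miR-21a-5p to miR-21a-3p in each library, by age. Points are libraries (6 per age) and bars are the mean ± SD; the first ratio moves from a mean of -1.81 to -0.88, whereas the second is at 5.57 and 5.66.

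miR-155-5p, the pro-inflammatory member, was measured with few reads. It ran from 290.0 FPKM through 702 to 1024 in young libraries and, in aged ones, from 787 through 1077 to 1808. All 6 aged libraries were above the young median and 3 above the young maximum, with young replicates 1 and 4 inside the aged range. The mean was 689 ± 251 FPKM in young and 1132 ± 373 in aged muscle (SD, n = 6 each). The log2 difference of 0.71 (SE 0.32) did not pass over all miRNAs (limma adjusted p = 0.344), with an unadjusted p of 0.0381 and an exact permutation p of 0.0238. Together with miR-146a-5p it made 2 of the 5 members with an unadjusted p under 0.05, against 12.9% of all miRNAs in either direction and 5.6% with the aged level higher. The lowest value (young replicate 3) rested on 2 reads, with a 95% Poisson interval of 0.242 to 7.22 reads, and the highest (aged replicate 5) on 5. These intervals cover counting error only. Both miR-146a-5p and miR-155-5p stand in the study's table of up-regulated miRNAs, drawn from these same libraries, so their direction here is not independent evidence. The study then raised its fold cut-off for up-regulation, and its value for miR-155-5p lies below the raised cut-off. The study also measured both by quantitative PCR of gastrocnemius at the same ages, and reports that the up-regulated miRNAs tested rose there too. It calls the rise modest for some of them, without naming these in its text. The PCR values were not re-analysed here.

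The miR-21a hairpin showed no difference that passed the test. miR-21a-5p, its dominant arm, ran from 80684 FPKM through 93383 to 135694 in young libraries and, in aged ones, from 90147.5 through 99996 to 139509. The ages overlapped, and 3 of 6 aged libraries were above the young median. The mean was 99508 ± 19505 FPKM in young and 105318 ± 18882 in aged muscle (SD, n = 6 each), a log2 difference of 0.085 (SE 0.13, limma adjusted p = 0.850) that was 0.00033 without aged replicate 1 and 0.18 without young replicate 5. It had the smallest relative spread of the 5, with a coefficient of variation of 19.6% in young and 17.9% in aged muscle, against 77.3% and 46.9% for miR-146a-5p.

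miR-21a-3p, the arm that is mostly discarded, ran from 1218 FPKM through 2113 to 2998 in young libraries and, in aged ones, from 1409 through 1988 to 3373. Here 1 of 6 aged libraries was above the young median. The mean was 2096 ± 602 FPKM in young and 2088 ± 684 in aged muscle (SD, n = 6 each), a log2 difference of -0.0083 (SE 0.24, limma adjusted p = 0.990). The log2 ratio of the 5p to the 3p arm was 5.57 ± 0.353 in young and 5.66 ± 0.206 in aged muscle. It differed by 0.09 (SE 0.19, limma adjusted p = 0.841 over 130 hairpins with both arms tested, of which 0.769% passed).

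Reads of the other arms were nearly absent. miR-146a-3p had no read in any of the 12 libraries against 3838 reads of its 5p arm, which allows a 3p share of up to 0.0782%. miR-155-3p had no read against 448 of its 5p arm, which allows up to 0.670%. miR-146b-3p had 5 reads in all, 2 in young replicate 6 and 3 in aged replicate 3, against 7247 of the 5p arm (0.0689%, exact 95% interval 0.0224% to 0.161% for counting error only). In the miR-21a hairpin the 3p arm took 984 of 51802 reads (1.90%), most of them from young replicate 6 and aged replicate 3, and the 5p arm stood at 35.0 to 66.3 times the 3p arm in single libraries. The near copies miR-21b and miR-21c had 0 to 14 and 0 to 5 reads per library.

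The next question was whether the 5 miRNAs moved together across libraries. The 10 pairs were compared with Pearson's r and Spearman's rho of the log2 levels over the 12 libraries, with permutation tests adjusted over the 10 pairs. miR-146a-5p and miR-146b-5p varied together, with r = 0.848 (permutation p = 0.00064, adjusted 0.0064) and rho = 0.839 (permutation p = 0.00112, adjusted 0.0112). Young replicates 4 and 6 were high in both, and aged replicates 3 and 5 were the highest aged libraries in both. By r the relation was of like size within each age, with r = 0.877 in young (exact permutation p = 0.0639) and 0.812 in aged muscle (exact permutation p = 0.0750). Neither passed alone with 6 libraries. Within ages rho was lower, at 0.543 in young and 0.714 in aged muscle (exact permutation p = 0.297 and 0.136). As deviations from the mean of each age r was 0.846, and without young replicates 1 and 3, the farthest from the median of miR-146a-5p, it was 0.881. As for the ratio, how reads that match both miRNAs would have been assigned is not given. The part of such reads in these correlations was not tested.

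**Figure D3:**
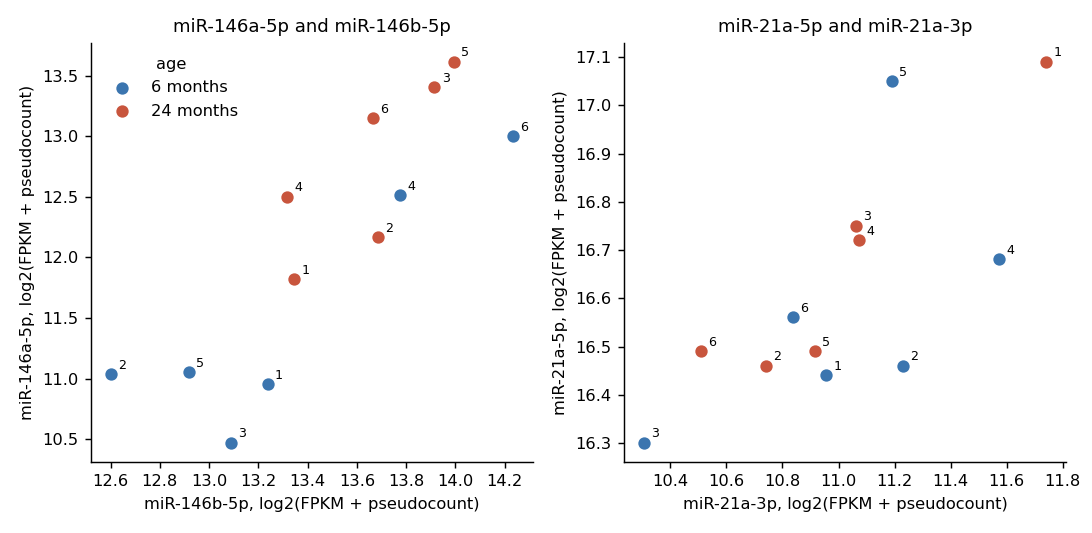
Log2(FPKM + pseudocount) of miR-146a-5p against miR-146b-5p and of miR-21a-5p against miR-21a-3p. Each point is a library, coloured by age and numbered by replicate (6 per age); the miR-146 pair has r = 0.848 and the miR-21a arms r = 0.733.

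The arms of the miR-21a hairpin, which come from 1 precursor, had r = 0.733 (permutation p = 0.00784, adjusted 0.0392). Their rho was 0.639 (permutation p = 0.0283, adjusted 0.138). Within ages r was 0.572 in young and 0.943 in aged muscle (exact permutation p = 0.197 and 0.0222, adjusted 0.493 and 0.222). Without young replicate 5 and aged replicate 1 the r over both ages was 0.659. With median-of-ratios scaling it was 0.448 (adjusted permutation p = 0.369). The call was also lost when young replicate 3 or aged replicate 1, 2, 3, 4 or 5 was left out, with r from 0.596 to 0.737 and adjusted permutation p from 0.0513 to 0.181.

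miR-146a-5p and miR-155-5p had r = 0.652 (permutation p = 0.0171, adjusted 0.0569) and rho = 0.517 (permutation p = 0.0861, adjusted 0.215). Within ages r was 0.595 in young and 0.140 in aged muscle (exact permutation p = 0.133 and 0.825), and as deviations from the age means 0.439. Without young replicates 1 and 3 it was 0.515. The other 7 pairs had r from -0.12 to 0.53 (adjusted permutation p from 0.183 to 0.963). Between the miR-146 and the miR-21a members r lay between -0.12 and 0.05. Levels shared the depth of their library. Against log10 of the estimated reads the members had r from -0.05 to 0.38 (adjusted permutation p from 0.669 to 0.958). For miR-146a-5p this r was 0.35, and -0.03 without young replicate 6 and aged replicate 3.

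**Figure D4:**
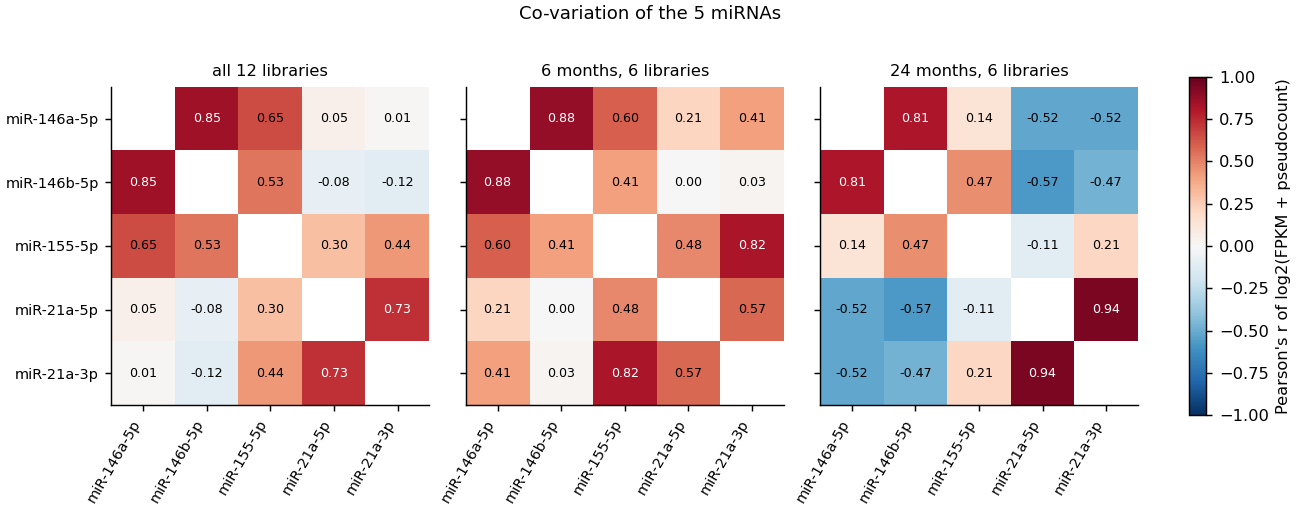
Pearson's r between the log2 levels of the 5 miRNAs (rows and columns), over all 12 libraries and within each age (6 libraries each), on a colour scale from -1 to 1. The miR-146 pair is at 0.85, 0.88 and 0.81 and the miR-21a arms at 0.73, 0.57 and 0.94.

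For each member the miRNAs with the most similar pattern were taken from the 215 others that were above 0 in all libraries, as a description over 12 libraries that share depth and scaling. For miR-146a-5p these were miR-24-3p and miR-3074-5p (r = 0.855 for both, whose values were identical in every library), followed by miR-146b-5p. For miR-146b-5p the most similar was miR-146a-5p. For miR-155-5p they were miR-34a-5p (r = 0.903), a p53 target, then miR-25-3p (0.814) and miR-378b (0.787). Both miR-155-5p and miR-34a-5p had their lowest value in young replicate 3. For miR-21a-5p they were miR-22-3p (0.877), which is enriched in muscle, miR-106b-3p (0.854) and let-7g-5p (0.852). For miR-21a-3p they were miR-128-3p (0.816), miR-150-5p (0.799) and let-7g-5p (0.775).

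Other miRNAs known to change with inflammatory signals, most of them induced, were listed to place the members among them. Of the 18 listed, 15 were tested, 10 were higher and 5 lower in aged muscle, and the median log2 difference was 0.12, against 0.07 over all miRNAs, of which 55.4% were higher. With limma 1 passed, against 2.9% of all miRNAs in either direction and 0.622% called as higher in aged muscle. In the same fit 3 had an unadjusted p under 0.05, namely miR-132-3p, miR-34a-5p and miR-29b-3p, all higher in aged muscle. Over all miRNAs this share was 12.9% in either direction and 5.6% with the aged level higher. The miRNA that passed was miR-132-3p, induced by CREB and by lipopolysaccharide. It was at 0 to 449 FPKM in young and at 446 to 955 in aged muscle, and rose by 2.06 on the log2 scale (SE 0.56, limma adjusted p = 0.0497). It was at 0 in 2 of 6 young libraries, so its value followed the pseudocount (4.00 with 1 FPKM and 0.80 with 482 FPKM). Its direction held in 24 alternatives, but 17 lost the call. The call was lost without young replicate 2, 3 or 5 or any 1 aged library (limma adjusted p from 0.0573 to 0.130). miR-34a-5p was at 152 to 1098 FPKM in young libraries and at 1243 to 2272 FPKM in aged ones. Its ages did not overlap, as in 0.415% of all miRNAs with the aged group above, and its log2 difference was 1.23 (SE 0.35, limma adjusted p = 0.0626). miR-29b-3p, counted among the 10 higher although NF-kB represses its gene in muscle cells, differed by 0.69 (SE 0.24, limma adjusted p = 0.164). The 3 most abundant of the list were miR-99b-5p, miR-125a-5p and miR-125b-5p, with log2 differences of -0.46, -0.06 and 0.12 (limma adjusted p from 0.423 to 0.944).

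**Figure D5:**
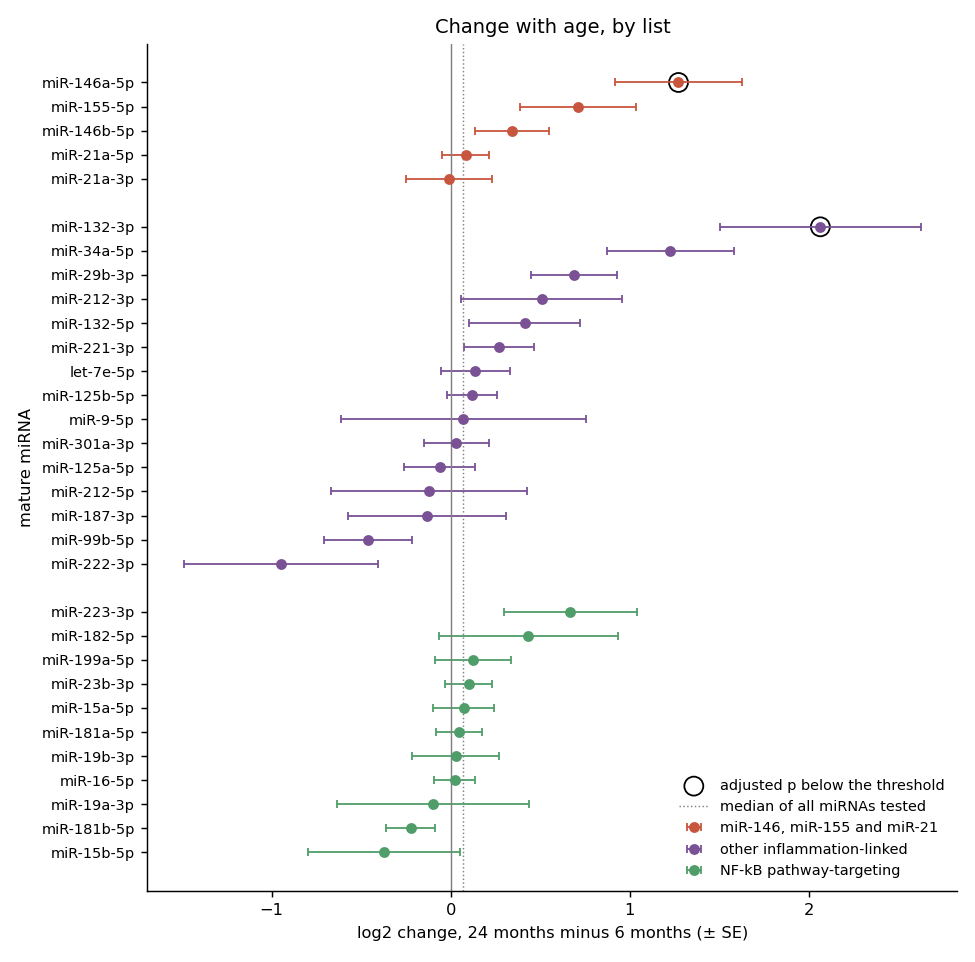
Log2 change from 6 to 24 months with its SE (horizontal axis) for the 5 miRNAs, 15 other inflammation-linked miRNAs and 11 that target the NF-kB pathway, from 6 libraries per age. Circled points had an adjusted p under 0.05 (miR-146a-5p and miR-132-3p), and the dotted line is the median of all miRNAs tested, 0.07.

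For the NF-kB pathway itself, 11 miRNAs that target its components were tested, and 0 passed with limma, with 0 also at an unadjusted p under 0.05 in the same fit. Over all miRNAs these shares were 2.9% and 12.9%. Of the 11, 8 were higher and 3 lower in aged muscle, with a median log2 difference of 0.05. The 3 most abundant were miR-181a-5p (0.05), miR-16-5p (0.02) and miR-23b-3p (0.10).

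Since miR-146a and miR-155 are abundant in leukocytes, the miRNAs of white blood cells were set beside them. Of 7 tested 5 were higher and 2 lower in aged muscle, against 55.4% higher over all miRNAs. With limma 0 passed, against 2.9%, and 1 had an unadjusted p under 0.05, against 12.9%. This was miR-223-5p, with a log2 difference of 0.74 (SE 0.32, limma adjusted p = 0.285). Their summed level was 9466 to 20694 FPKM at the young age and 12506 to 26023 FPKM at the aged one. No defining marker was at 0 throughout. The leukocyte miRNAs miR-142-5p and miR-142-3p differed by 0.35 and 0.37 on the log2 scale (SE 0.24 and 0.41). The myeloid miR-223-3p differed by 0.67 (SE 0.37, limma adjusted p = 0.458), and the lymphocyte miR-150-5p by -0.17 (SE 0.24). Their part in the rise of miR-146a-5p was not tested.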

How the data were processed

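Small RNA libraries from 12 gastrocnemius samples, 6 per age, were analysed. By the study's methods, the authors trimmed the reads, mapped them with BWA without changed options, and obtained FPKM per mature miRBase sequence from their own script. The submitters' processing notes name TopHat2 and mm10. The deposited values are log2 of FPKM with 0 for a miRNA without a read. Use of strand and treatment of reads with several matches are not given in the sources used here. The identical values of miR-24-3p and miR-3074-5p in every library show that the same reads were counted under both names. Such names were kept as separate miRNAs in the tests, in their adjustment and in the shares of all miRNAs. Instrument names differ between the study's methods and the series text.

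The log was undone, genomic copies of a mature miRNA were summed, and reads were recovered from the lowest steps of each library. With lengths from RefSeq, 99.3% of the 2988 values below 25 reads came out whole to within 0.15 read. Levels were tested as log2(FPKM + 48.2), where the pseudocount is the median of each library's lowest nonzero value. limma 3.58.1 in R 4.3.3 (eBayes with trend, without covariates) was run on the 482 miRNAs that were above 0 in 5 or more libraries. Tests were two-sided, and p-values were adjusted by Benjamini-Hochberg with a threshold of 0.05. The arm ratio was fitted likewise over 130 hairpins. Ratios and single miRNAs were compared by exact permutation over 924 splits, and correlations by 100000 permutations, or exactly within an age. With the replicate block the miR-146 ratio was compared by exact sign flips of the differences between same-numbered libraries. Limits for a count of 0 use 3 reads. Poisson and Clopper-Pearson intervals are at 95%. The fit was tested on simulated data with less spread between libraries than miR-146a-5p had (log2 SD 1.00 in young and 0.72 in aged muscle). That test therefore does not show how the fit performs for miR-146a-5p. Sequences and coordinates came from RefSeq (5 of 5 members matched) and GENCODE M21, both of the mm10 assembly. Scripts used Python 3.11.15, pandas 2.3.3, NumPy 2.4.6 and SciPy 1.17.1.

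The members and lists were chosen with earlier results of these data known. Named were the members, their other arms and near copies, list miRNAs with an unadjusted p under 0.05 or among the 3 most abundant of a list, cell type markers, and the 3 miRNAs most similar to each member. Alternatives were other pseudocounts and filters, quantile and median-of-ratios scaling, a replicate block, depth as a covariate, no trend, zeros kept as values, voom on the recovered reads, copies kept apart, exact permutation, and leaving out libraries. Regressing depth out of the co-variation was chosen after seeing the data. The labels do not say whether libraries came from separate animals, while the study's methods give 6 mice per age.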

Additional observations from a re-analysis of the deposited data

How the results depend on the processing

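The count of miRNAs called was 14 and fell to 6 with a pseudocount of 1 FPKM, 7 with no filter, 8 with a filter on the mean, 8 with depth as a covariate and 6 with zeros kept as values, and ran from 6 to 16 when 1 library was left out. It was 17 with median-of-ratios scaling and 19 with quantile normalization. Of the 14, 3 were higher in aged muscle, against 1 with the filter on the mean and 0 in the other settings with a fall named here, where 6 to 8 were lower. miR-146a-5p kept its direction but lost its call in these settings, given as the log2 difference with the limma adjusted p: a pseudocount of 1 FPKM (1.29, 0.125) or 482 FPKM (1.14, 0.0906), no filter (1.27, 0.285), quantile normalization (1.28, 0.122), a filter on the mean (1.27, 0.0875), median-of-ratios scaling (1.25, 0.0836), depth as a covariate (1.16, 0.127), no trend (1.27, 0.223), zeros kept as values (1.29, 0.122), voom on recovered reads (0.90, 0.324) and genomic copies kept apart (1.27, 0.0543). In the exact permutation test, with the same difference, p adjusted over all miRNAs was 0.324. Leaving out 1 library gave 1.07 to 1.57. Without the deepest library of each age the call was kept (1.45, 0.0133). miR-21a-3p, near 0 throughout, changed sign with quantile normalization (0.068), depth as a covariate (0.00465) and voom (0.035), and ran from -0.16 to 0.10 when 1 library was left out. The differences of miR-146b-5p, miR-155-5p, miR-21a-5p, the miR-21a arm ratio and the miR-146 ratio kept their direction and their side of the threshold in the alternatives run. Leaving out 1 library gave 0.20 to 0.53 for miR-146b-5p, 0.50 to 0.84 for miR-155-5p, 0.00033 to 0.18 for miR-21a-5p and 0.0014 to 0.18 for the arm ratio, and voom gave 0.19 for miR-146b-5p. The count of hairpins whose arm ratio passed was 1 and ran from 0 to 4.

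Of 10 member pairs 2 passed, against 1 with median-of-ratios scaling, 0 within young, 0 within aged and 1 to 3 when 1 library was left out. The arms of miR-21a lost their call with quantile normalization (r = 0.509, adjusted permutation p = 0.287) too. miR-146a-5p and miR-155-5p gained one with quantile normalization (0.684, 0.0428), without the deepest library of each age (0.744, 0.0411) and with depth regressed out (0.700, 0.0243).

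Replicate numbers are shared by the labels of both ages. The deviations of same-numbered libraries correlated from -0.09 to 0.09, and 0 of 6 libraries were most like their own number, so the samples share only a number. With the replicate block 14 miRNAs were called and miR-146a-5p had a limma adjusted p of 0.0119. The miR-146 ratio differed by 0.93, with p = 0.0313 by exact sign flips of the differences between same-numbered libraries. This was the smallest p that the sign-flip test could give. Depth limits miR-155-5p most, since 6 of the 12 libraries held 12 or fewer of its reads.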

Other observations

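The miRNAs of other cell types in the muscle were listed as a check of the tissue. The muscle miRNA miR-1a-3p stood at 205783 ± 50199 FPKM in young and 229086 ± 34666 in aged muscle (SD, n = 6 each). Of 6 muscle miRNAs 1 passed, against 2.9% of all miRNAs (0.622% as higher in aged muscle). This was miR-206-3p, which is enriched in satellite cells and slow fibres. It lay between 152 and 1951 FPKM in young libraries and between 1278 and 2684 in aged ones, and rose by 1.54 on the log2 scale (SE 0.39, limma adjusted p = 0.0296). Its direction held in 25 alternatives, but 14 lost the call (limma adjusted p up to 0.198). It was lost without young replicate 1, 3 or 5 or aged replicate 2, 3, 4, 5 or 6 (limma adjusted p from 0.0509 to 0.0746). The others, miR-1a-3p, miR-133a-3p, miR-133b-3p, miR-499-5p and miR-208b-3p, had log2 differences from -0.17 to 1.29 (limma adjusted p from 0.552 to 0.711).

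Of 3 miRNAs of red blood cells 0 passed with limma, against 2.9% of all miRNAs, and 1 had an unadjusted p under 0.05, against 12.9%. This was miR-144-3p, with an unadjusted limma p of 0.0118 and a log2 difference of -0.77 (SE 0.28). The summed red blood cell level lay between 5828 and 10486 FPKM in young libraries and between 3022 and 10507 in aged ones. Of 2 endothelial and 5 fibroblast miRNAs 0 passed with limma, and 0 had an unadjusted p under 0.05, against the same shares of all miRNAs. miR-126a-3p of the endothelium differed by 0.04 and miR-199a-5p of fibroblasts by 0.12 on the log2 scale.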
